A study of Mus musculus with 6 samples.

Results

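Protein disulfide isomerases and oxidases of the endoplasmic reticulum (ER) were examined in mouse livers given a viral vector for Pik3cd, which encodes p110 delta, a catalytic subunit of PI3K found mainly in leukocytes. The set was a list of names, drawn up with earlier results of these arrays known but with no rule on a measured value: the isomerases P4hb, Pdia3, Pdia4, Pdia5, Pdia6 and Txndc5, the retention protein Erp44, the membrane-bound thioredoxin-fold protein Txndc11, and the oxidases Ero1b and Qsox1. Of these 10 genes 9 were measured, each by 1 of the 22206 probe sets of the array, and Pdia4 was matched to no probe set and was not analysed here. By rank products 0 of the 9 measured genes passed an adjusted p of 0.05, beside 0.036% of all probe sets called lower, and by limma 0 of the 9 passed, beside 0% of all probe sets. All 9 had a lower mean in AAV-PIK3CD than in AAV-control, as did 51.5% of all probe sets and 72.0% of those with a control mean of 8 or more. The median difference of the 9 genes was -0.21 on the log2 scale. The differences ran between -0.37 for Erp44 and -0.09 for Qsox1.

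Clariom S mouse arrays (Affymetrix) had been hybridised with RNA of 3 AAV-PIK3CD samples (arrays 51, 52 and 53) and 3 AAV-control samples (arrays 48, 49 and 50). By the study's methods, male C57BL/6 mice were injected with adeno-associated virus (AAV) at 8 weeks of age and sacrificed at 12 weeks. The AAV-PIK3CD vector carried mouse Pik3cd under the TBG promoter, a promoter specific to the liver, and no change to the endogenous gene is described for either group. The control vector is described in one place as carrying EGFP under the same promoter and in another as empty. With an EGFP control, the presence of Pik3cd and the absence of EGFP cannot be told apart. The labels and the study's array methods call the tissue tumor, while elsewhere the study describes liver. The hepatocyte markers, 12 of 12 above the median of the arrays, had a mean level between 12.3 and 12.4 in both groups. The study's methods speak of individual samples without naming animals, so p-values measured only the spread between these samples, which may be technical.

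Many proteins that a hepatocyte secretes enter the ER unfolded and form disulfide bonds before they can leave. Protein disulfide isomerases carry thioredoxin-like domains whose paired cysteines pass a disulfide to a client or exchange wrong bonds for right ones. The Ero1 flavoenzymes reoxidise these isomerases with oxygen and release hydrogen peroxide, and quiescin sulfhydryl oxidases such as Qsox1 put disulfides directly into clients in the Golgi and outside the cell. Many of these genes are transcribed more strongly in the unfolded protein response, through the factors Atf6 and Xbp1, which bind short elements near the start of their target genes.

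Promoter windows are shown for 4 genes, 2 with a full element of that response and 2 with only the core of one. The elements are a feature that the list of names did not use. RefSeq windows (build GRCm38.p6) reached 250 bases before to 50 bases after each annotated start, gave 14 windows for the 10 listed genes, and were searched on both strands for 5 motifs. The ER stress element ERSE was spelled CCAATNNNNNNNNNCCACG, ERSE-II was ATTGGNCCACG and the core of the unfolded protein response element (UPRE) was TGACGTG. The ERSE ends CCAAT and CCACG were also searched alone, and the UPRE core can overlap a reversed CCACG. Capitals mark both ends of ERSE in Pdia6 (chr12:17266339-17266638, plus strand) and, reversed, in Ero1b (chr13:12565633-12565932, plus strand), and the UPRE core in 1 of the 3 Txndc5 windows (chr13:38527865-38528164, minus strand) and 1 of the 2 Txndc11 windows (chr16:11134483-11134782, minus strand). Each window reads 5′ to 3′ along its gene.
Pdia6: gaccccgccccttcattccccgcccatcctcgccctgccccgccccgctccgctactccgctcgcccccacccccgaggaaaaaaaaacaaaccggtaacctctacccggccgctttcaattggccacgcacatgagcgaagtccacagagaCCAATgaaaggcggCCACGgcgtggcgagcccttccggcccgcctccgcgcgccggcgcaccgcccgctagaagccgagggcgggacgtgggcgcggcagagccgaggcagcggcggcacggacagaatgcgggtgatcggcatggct
Ero1b: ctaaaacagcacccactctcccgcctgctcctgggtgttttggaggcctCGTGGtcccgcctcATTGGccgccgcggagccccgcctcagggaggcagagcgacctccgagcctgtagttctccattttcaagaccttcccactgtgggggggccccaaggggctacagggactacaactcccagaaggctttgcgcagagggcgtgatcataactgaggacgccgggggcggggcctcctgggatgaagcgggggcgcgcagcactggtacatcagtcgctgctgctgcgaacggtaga
Txndc5: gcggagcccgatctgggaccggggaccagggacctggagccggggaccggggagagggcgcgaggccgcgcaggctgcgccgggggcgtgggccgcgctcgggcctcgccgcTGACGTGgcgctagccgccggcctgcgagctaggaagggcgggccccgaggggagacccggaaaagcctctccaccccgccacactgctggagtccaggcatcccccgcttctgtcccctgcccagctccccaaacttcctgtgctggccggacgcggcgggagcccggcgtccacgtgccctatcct
Txndc11: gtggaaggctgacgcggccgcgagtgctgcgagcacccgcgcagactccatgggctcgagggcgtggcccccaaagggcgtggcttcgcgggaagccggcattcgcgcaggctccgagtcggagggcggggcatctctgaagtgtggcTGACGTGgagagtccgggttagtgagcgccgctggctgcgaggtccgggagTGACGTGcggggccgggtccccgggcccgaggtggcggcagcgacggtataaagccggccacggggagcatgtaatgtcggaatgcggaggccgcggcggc

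The ERSE match began at -98 in Pdia6 and at -201 in Ero1b, counted from the annotated first base of the transcript as 0. Such a match was found in 39 of 32851 windows of all genes (0.119%) and in 2 of the 14 windows of the set. The UPRE core began at -138 in Txndc5 and at -102 and -51 in Txndc11, and it stood in 661 of all windows (2.01%). ERSE-II was found in 0.0365% of all windows and in 0 of the 14. The short ends alone are common: CCACG stood in 10 of the 14 windows and 32.8% of all, and CCAAT in 8 of the 14 and 37.4% of all. P4hb had CCAAT once and CCACG in 2 places without the ERSE spacing. In the windows of P4hb, Erp44, Pdia3, Pdia4, Pdia5 and Qsox1 no ERSE, ERSE-II or UPRE core was found. The chaperone and unfolded protein response list had ERSE in 5 of 21 windows and other PDI family genes in 1 of 14. Other ER oxidants had it in 0 of 10, and thioredoxin-fold and related proteins outside the ER in 0 of 27. A match of letters is a description and not a measured binding site.

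The comparison asked how the genes of disulfide formation stood in AAV-PIK3CD relative to AAV-control. Levels are log2 values after RMA normalization, and each difference is AAV-PIK3CD minus AAV-control. Rank products was the test named in the study's methods, and limma was run beside it. At an unadjusted p under 0.05 limma had 1 of the 9 genes lower, Txndc5, against 2.58% of all probe sets, and rank products had 1, Erp44, against 2.85% of all probe sets. For 3 arrays against 3 the exact permutation test cannot give a p below 0.1.

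A lower mean was more common among bright probe sets. Of the 2629 with a control mean of 8 or more, a level chosen after the values were seen, 72.0% had a lower mean in AAV-PIK3CD, and their median difference was -0.06 against -0.01 for all probe sets. In 2 of the 9 genes, Txndc5 and Pdia6, every AAV-PIK3CD array lay below every AAV-control array, where 4.97% of all probe sets and 7.23% of the bright ones did so. The level exceeded the median of each array for 8 of the 9 genes, all of them with a control mean of 8 or more, and Txndc11 was below it. In bulk RNA such as this, fewer cells of a type and less RNA per cell cannot be told apart.

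**Figure D1:**
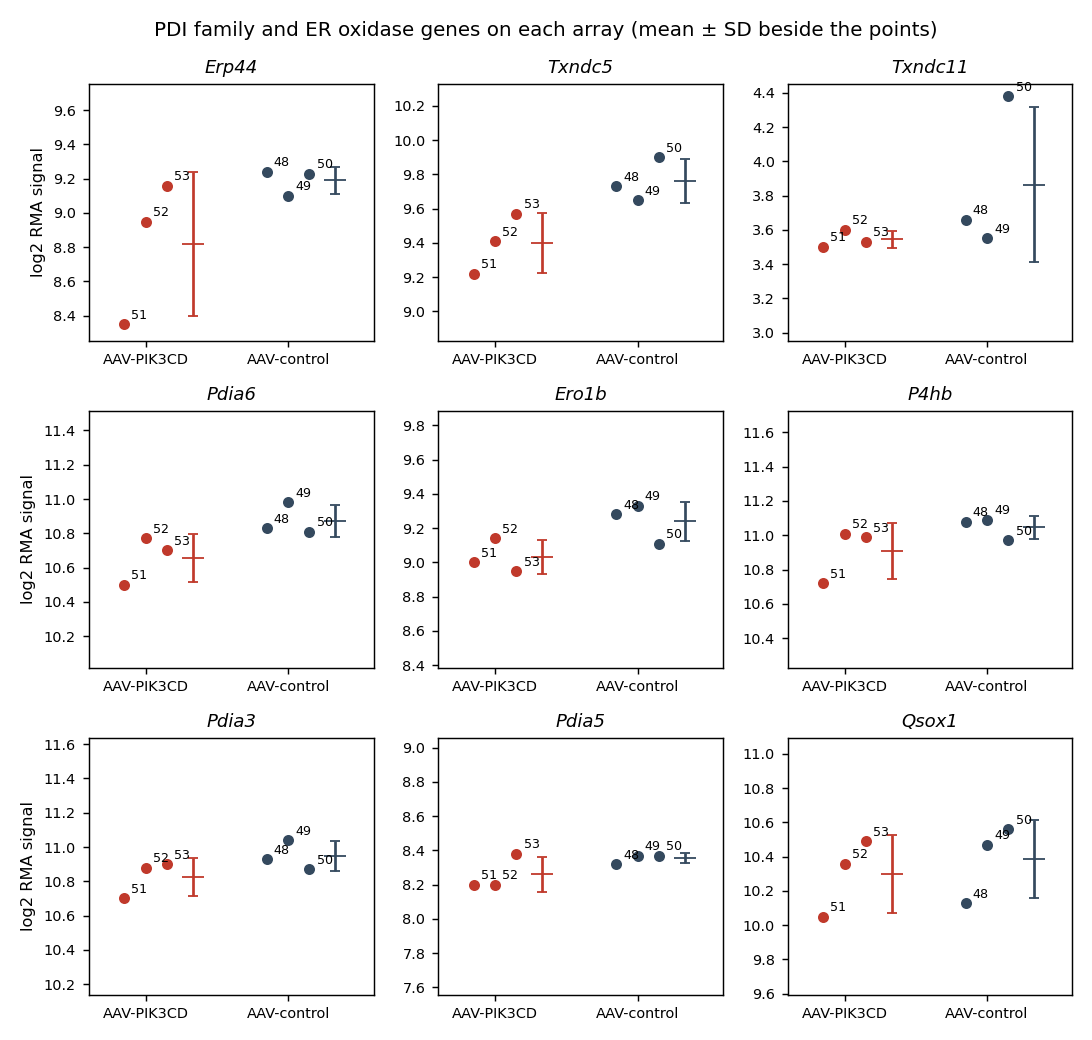
Log2 RMA level of the 9 measured genes on each array (y axis, every panel spanning the same number of log2 units), with AAV-PIK3CD arrays 51, 52 and 53 in red and AAV-control arrays 48, 49 and 50 in blue, and the mean ± SD of each group (n = 3) beside its points. Array 51 lies below all controls in 9 of 9 panels, and the groups lie apart in the panels of Txndc5 and Pdia6.

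The isomerases include the most classical members of the family. Txndc5 (ERp46, probe set TC1300001835.mm.2), an isomerase known as a fast donor of disulfides to clients, read 9.22, 9.41 and 9.57 on AAV-PIK3CD arrays 51, 52 and 53, against 9.73, 9.65 and 9.90 on AAV-control arrays 48, 49 and 50. All AAV-PIK3CD arrays were below all controls, and the closest pair was array 53 and control array 49. Its means of 9.40 ± 0.18 in AAV-PIK3CD and 9.76 ± 0.13 in AAV-control (SD, n = 3 each) differed by -0.36 (SE 0.13, 95% interval -0.66 to -0.06), or 0.779-fold, and the exact permutation p was 0.1. This was the only one of the 9 genes whose limma interval lay below 0, with an adjusted p of 0.932 from limma and 0.878 from rank products. Leaving out each array in turn moved the difference between -0.445 and -0.27.

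Pdia6 (P5, probe set TC1200000139.mm.2), an isomerase that works beside the chaperone BiP and carries the ERSE match shown above, read 10.50, 10.77 and 10.70 in AAV-PIK3CD, against 10.83, 10.98 and 10.81 in AAV-control. The groups were apart by the narrow gap between array 52 and control array 50. Its difference was -0.22 (SE 0.13, interval -0.49 to 0.06) with an exact permutation p of 0.1, and without array 51 it was -0.14.

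P4hb (PDI itself, probe set TC1100004215.mm.2) is the founding isomerase and also the beta subunit of collagen prolyl 4-hydroxylase and of the microsomal triglyceride transfer protein. It read 10.72, 11.01 and 10.99 in AAV-PIK3CD, against 11.08, 11.09 and 10.97 in AAV-control. Array 51 was the low one, and arrays 52 and 53 lay within the control range. The difference was -0.14 (SE 0.13, interval -0.42 to 0.14), and without array 51 it was -0.05.

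Pdia3 (ERp57, probe set TC0200001812.mm.2), which folds glycoproteins held by calreticulin and calnexin, read 10.70, 10.88 and 10.90 in AAV-PIK3CD, against 10.93, 11.04 and 10.87 in AAV-control. As for P4hb, array 51 stood low and the other AAV-PIK3CD arrays overlapped the controls. The difference was -0.12 (SE 0.12, interval -0.39 to 0.15) and -0.06 without array 51.

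Pdia5 (PDIR, probe set TC1600001548.mm.2), an isomerase known in human cells to act on the stress sensor ATF6, read 8.20, 8.20 and 8.38 in AAV-PIK3CD, against 8.32, 8.37 and 8.37 in AAV-control. Arrays 51 and 52 were below all controls and array 53 was above all of them, the only AAV-PIK3CD value above all controls among the 9 genes. The difference was -0.09 (SE 0.12, interval -0.35 to 0.17), and it was -0.15 without array 53, -0.03 after quantile normalization and -0.03 after cyclic loess. For P4hb, Pdia3, Pdia5 and Pdia6 the adjusted p ran between 0.932 and 0.961 by limma and was 1 by rank products.

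Erp44 (probe set TC0400002621.mm.2) retrieves Ero1 enzymes and unassembled clients such as immunoglobulin M and adiponectin from the early Golgi back to the ER. It read 8.35, 8.95 and 9.16 in AAV-PIK3CD, against 9.24, 9.10 and 9.23 in AAV-control. Array 51 was far below every other array, array 52 was below all controls, and array 53 was within the control range. The means were 8.82 ± 0.42 in AAV-PIK3CD and 9.19 ± 0.08 in AAV-control (SD, n = 3 each). The difference of -0.37 (SE 0.19, interval -0.79 to 0.05) was the largest of the 9 genes, and it was -0.135 without array 51. Limma gave an adjusted p of 0.932 and rank products 0.860, and the exact permutation p was 0.2.

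Txndc11 (probe set TC1600001208.mm.2), a membrane protein of the ER known as a partner of the dual oxidases of the thyroid, read 3.50, 3.60 and 3.53 in AAV-PIK3CD, against 3.66, 3.55 and 4.38 in AAV-control. Control array 50 alone stood high, and the other 5 arrays were close together. The difference was -0.32 (SE 0.20, interval -0.75 to 0.11), with an adjusted p of 0.932 by limma and 0.899 by rank products. Without control array 50 it was -0.06. At a level below the median of the arrays, background limits what a difference can show.

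Ero1b (probe set TC1300000072.mm.2), the Ero1 oxidase best known from insulin-producing cells and the second carrier of an ERSE match, read 9.0, 9.14 and 8.95 in AAV-PIK3CD, against 9.28, 9.33 and 9.11 in AAV-control. It was the only one of the 9 genes whose lowest value was not on array 51, and array 52 overlapped control array 50. The means were 9.03 ± 0.10 in AAV-PIK3CD and 9.24 ± 0.12 in AAV-control (SD, n = 3 each), a difference of -0.21 (SE 0.12, interval -0.48 to 0.06). With each array left out it stayed between -0.275 and -0.165. Pancreatic islet markers, which could bring Ero1b into a bulk sample, had a mean level of 3.71 to 3.86 in AAV-PIK3CD and 3.66 to 3.78 in AAV-control, and 1 of 7 lay above the array median in the controls.

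Qsox1 (probe set TC0100003309.mm.2), the secreted and Golgi oxidase, read 10.05, 10.36 and 10.49 in AAV-PIK3CD, against 10.13, 10.47 and 10.56 in AAV-control. Each group held 1 low array, array 51 and control array 48, and the ranges overlapped almost wholly. The difference was -0.09 (SE 0.16, interval -0.44 to 0.26), and without array 51 it changed sign to 0.04. Control arrays moved it as much: it was -0.215 without array 48 and close to 0 without array 50. Adjusted p for the oxidases was 0.932 for Ero1b and 0.973 for Qsox1 by limma, and 1 for both by rank products.

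**Figure D2:**
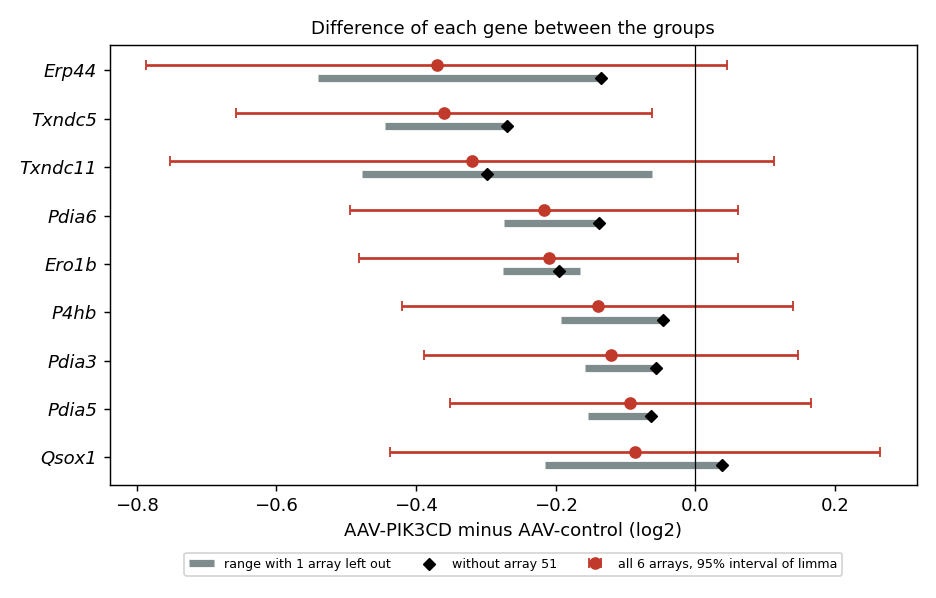
Difference of each gene between the groups (x axis, log2 units, AAV-PIK3CD minus AAV-control), with the limma 95% interval in red (n = 3 arrays per group), the range of the difference with 1 array left out in grey, and the value without array 51 as a black diamond. The interval of Txndc5 lies below 0, and the diamond of Qsox1 lies above 0 at 0.04.

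Across the set, array 51 stood lowest. It lay below all controls in 9 of the 9 genes, where it did so for 27.5% of all probe sets. Arrays 52 and 53 were each below all controls in 4 genes, against 24.9% and 22.9% of all probe sets. The median deviation of the 9 genes from their 6-array means was -0.26 on array 51, -0.01 on array 52 and 0.01 on array 53, against 0.07, 0.11 and 0.06 on control arrays 48, 49 and 50. Among all probe sets with a control mean of 8 or more, array 51 deviated by -0.08, and it was lowest, alone or tied, in 997 of 2629. Over all 22206 probe sets it was so in 4750, and in the set in 8 of 9. Some related lists also stood low on array 51: -0.23 for other ER oxidants, -0.13 for thioredoxin-fold and related proteins outside the ER, and -0.11 for the unfolded protein response list. That last list was lower on array 53, at -0.14. Of its 22 genes, 12 were lowest there, alone or tied, and 7 on array 51. On array 51 the deviation was -0.06 for other PDI family genes, -0.04 for partners of the set and 0.01 for secreted hepatocyte proteins. On array 53 it was -0.09 for partners and -0.05 for secreted proteins. Without array 51 the median difference of the 9 genes was -0.135, and 8 of the 9 kept a lower mean.

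Array 51 also carried transcripts of the exocrine pancreas. The mean level of 18 acinar markers was 7.32 on array 51, 3.88 on array 52 and 3.80 on array 53, against 3.74 to 3.88 on the control arrays, and 16 of the 18 were highest on array 51. Muscle markers read 4.98 on array 51, against 4.07 to 4.24 on every other array. Hepatocyte markers on array 51 were within the range of the other arrays at 12.4. Pdia2, the isomerase of the pancreas, was named after its values were seen: it read 5.17, 4.0 and 3.96 in AAV-PIK3CD, against 3.98, 4.06 and 4.05 in AAV-control. It was high on array 51 only. The part of this pancreatic RNA in the low values of array 51 was not tested.

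Other cell type lists also differed between arrays. Kupffer cell markers had a lower mean in AAV-PIK3CD in 4 of 6 genes, at a median difference of -0.19, and a mean level of 6.50 to 6.79 in AAV-PIK3CD and 6.62 to 6.87 in AAV-control. Sinusoidal endothelial markers were lower in 5 of 7, with 2 of 7 apart and lower. Of all probe sets 51.5% had a lower mean and 4.97% were apart and lower. The mean level of the endothelial markers was 6.54 to 6.64 in AAV-PIK3CD and 6.62 to 6.74 in AAV-control. Adipocyte markers read 4.52, 4.01 and 3.97 in AAV-PIK3CD, against 4.95, 4.05 and 4.05 in AAV-control, high on arrays 51 and 48. Not all such lists were lower in AAV-PIK3CD. Cholangiocyte markers had a higher mean in 4 of 5 genes and a lower one in 1, at a median difference of 0.16. Only 1 of these 5 lay above the array median in the controls. Stellate and fibroblast markers had a higher mean in 7 of 9 and a lower one in 1, at a median difference of 0.03. The part of these cells in the values of the set was not tested.

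**Figure D3:**
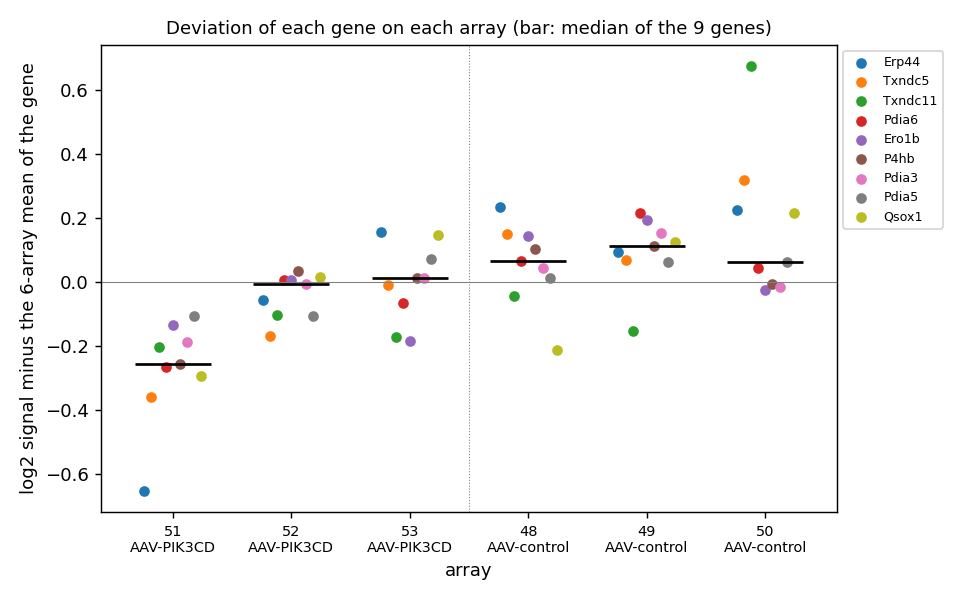
Deviation of each of the 9 genes from its mean over the 6 arrays (y axis, log2 units) on every array (x axis, AAV-PIK3CD arrays left, AAV-control arrays right), with the median of the 9 genes as a black bar. The bar stands at -0.26 on array 51 and between -0.01 and 0.11 on the other 5 arrays.

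The rest of the pathway was read from lists of other names. Other members of the PDI family were not uniformly lower: 8 of 16 had a lower mean in AAV-PIK3CD, beside 51.5% of all and 72.0% of bright probe sets. Their median difference was -0.02, and 0 were called by either test. The split went with brightness. Every gene of this list with a control mean of 8 or more had a lower mean: Creld2, Txndc12, Txndc15, Tmx2, Tmx1 and Dnajc10. Every gene with a higher mean had a control mean below 8. The median of this list is therefore not on a like footing with that of the set. Creld2, an ER isomerase induced by ER stress, read 9.36, 9.45 and 9.10 in AAV-PIK3CD, against 10.22, 9.95 and 9.51 in AAV-control. All AAV-PIK3CD arrays were below all controls. The difference was -0.59 (SE 0.18), and the adjusted p values were 0.325 (rank products) and 0.932 (limma). The study itself listed Creld2 as regulated on these arrays, so its direction is not independent evidence. Dnajc10 (ERdj5), a reductase of ER-associated degradation, differed by -0.23 (SE 0.13), and the membrane isomerase Tmx1 by -0.20 (SE 0.11) with the groups apart.

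Other oxidants and redox proteins of the ER had a lower mean in 10 of 10 genes, beside 51.5% of all and 72.0% of bright probe sets. The median difference was -0.175, and 0 were called. Ero1a, the widely expressed paralog of Ero1b, read 7.45, 7.68 and 7.28 in AAV-PIK3CD, against 8.14, 7.86 and 7.86 in AAV-control. The groups lay apart, and the difference of -0.48 (SE 0.14) was -0.47 without array 51. Rank products gave an adjusted p of 0.625 and limma 0.932. The selenoprotein Selenos, part of the machinery that takes misfolded proteins out of the ER, differed by -0.25 (SE 0.12) with the groups apart, and the ER peroxidase Gpx8 differed by -0.25 (SE 0.14) with overlap.

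Among genes whose proteins work with the set, 13 of 16 measured had a lower mean, or 81.3%, beside 51.5% of all and 72.0% of bright probe sets. In 4 of the 16 the groups were apart and lower, beside 4.97% of all and 7.23% of bright probe sets, and 0 were called. The median difference was -0.12. Edem3, a mannosidase that marks misfolded glycoproteins for degradation, differed by -0.36 (SE 0.13). Uggt1, which returns unfolded glycoproteins to the calnexin cycle in which Pdia3 works, differed by -0.28 (SE 0.12), and Edem2 by -0.27 (SE 0.13). The P4hb partner Mttp, named after its values were seen, read 10.01, 9.95 and 10.04 in AAV-PIK3CD, against 10.05, 10.13 and 10.14 in AAV-control. Its groups were apart by the smallest step the files record, and the difference was -0.11 (SE 0.11).

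Sensors, factors and chaperones of the unfolded protein response had a lower mean in 19 of 22 measured genes, or 86.4%. The share was 51.5% of all and 72.0% of bright probe sets. The median difference of the list was -0.175. No gene of this list was called, and 6 had groups apart and lower, or 27.3%, beside the 4.97% of all and 7.23% of bright probe sets given above. Another 1 gene had groups apart and higher. The 3 genes with the smallest limma p belonged to ER-associated degradation and its cofactors. Syvn1 (the ubiquitin ligase Hrd1) read 8.55, 8.35 and 8.37 in AAV-PIK3CD, against 9.22, 9.09 and 9.07 in AAV-control, a difference of -0.70 (SE 0.12) and an adjusted p of 0.126 by rank products. Its cofactor Sel1l differed by -0.47 (SE 0.15) with the groups apart. Dnajb9 (ERdj4), a BiP cochaperone and Xbp1 target, read 9.10, 8.83 and 8.33 in AAV-PIK3CD, against 9.75, 9.08 and 9.95 in AAV-control, and its difference of -0.84 (SE 0.24) had an adjusted p of 0.0535 by rank products. Array 51 overlapped control array 49 in that gene. Syvn1 and Dnajb9 are also on the study's own list from these arrays.

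**Figure D4:**
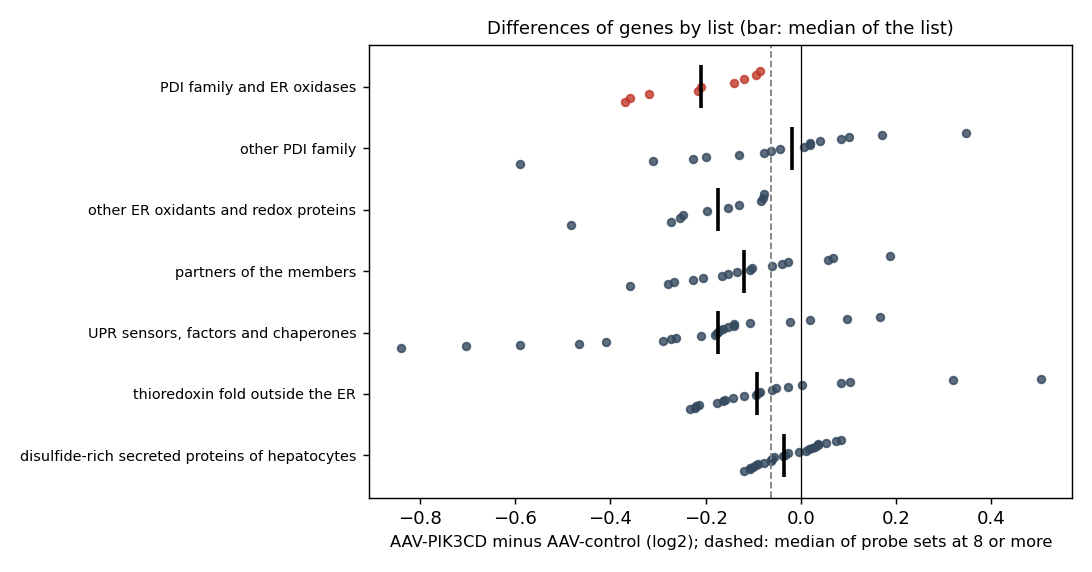
Difference of every measured gene (x axis, log2 units, AAV-PIK3CD minus AAV-control) in the set and in the 6 other lists, with the median of each list as a black bar and the median of probe sets with a control mean of 8 or more as a dashed line. The bars stand at -0.21 for the set, -0.02 for other PDI family genes and -0.175 for both the ER oxidants and the unfolded protein response.

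The vector's own gene gave a limited check of the labels. Pik3cd read 4.78, 5.14 and 4.86 in AAV-PIK3CD, against 4.66, 4.34 and 4.48 in AAV-control. All AAV-PIK3CD arrays were above all controls, as in 4.47% of all probe sets. The difference was 0.43 (SE 0.14, exact permutation p = 0.1) with an adjusted p of 0.674 from rank products and 0.932 from limma. The control values and array 51 lay below the array medians, where background limits what a difference can show. Whether the Pik3cd probes lie in the sequence that the vector carried is not known here. Over the whole array, medians lay between 4.81 and 4.87, rank products called 8 probe sets lower and 1 higher, and the smallest limma adjusted p was 0.932.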

How the data were processed

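For each of 6 Clariom S mouse arrays, 100 ng of total RNA was biotinylated and hybridised. The authors normalized them by RMA and deposited log2 values for 22206 probe sets. The RMA software version is not given in the sources used here. Arrays have no read depth, and 3 per group limit the precision.

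In the platform annotation 19572 probe sets had 1 symbol and 2634 had none. For the 55 symbols with several sets the one with the highest mean was used, and no filter was set. Rank products used all 9 pairs of an AAV-PIK3CD and an AAV-control array and 1000 seeded shuffles, with a 2-sided p. Limma 3.58.1 in R 4.3.3 (lmFit, eBayes) gave differences, SE and 95% intervals. Benjamini-Hochberg adjustment ran over all 22206 with a threshold of 0.05, and both tests were tested on simulated data, in which rank products also called some unchanged probe sets, more than limma did. Single values had a 2-sided exact permutation test, and lists were described by counts and medians. Other software was pandas 2.3.3, scipy 1.17.1, numpy 2.4.6, matplotlib 3.10.9 and Python 3.11.15.

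The genes of the set, the lists and the tests were chosen with earlier results of these data known. All genes of the set were named, with Pik3cd and Alb as checks. Of each other list, genes past either test were named, or otherwise up to 3 with the smallest unadjusted limma p. Genes named outside this rule, after seeing values, are marked so. Alternatives were quantile normalization, median centring, cyclic loess, each array left out, the mean of a symbol's probe sets, a filter on the dimmest 25% or 50%, rank sums, the percentage of false positives, the methods' t-test, and eBayes with trend and robust settings.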

Additional observations from a re-analysis of the deposited data

How the results depend on the processing

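The counts of called genes stayed at 0 of the set, by rank products and by limma, under every alternative run, which included rank sums, the percentage of false positives, the methods' t-test and filters on dim probe sets. The lowest adjusted p of any of the 9 genes by rank products was 0.623, and the methods' t-test called 0 probe sets after Benjamini-Hochberg, with 1059 at an unadjusted p under 0.05. After leaving out the dimmest 25% all 9 genes were tested, and after 50% there were 8. The median difference of -0.21 lay between -0.265 and -0.135 with each array left out, the smallest being without array 51. Genes with the groups apart and lower numbered 2, against 1 after cyclic loess and between 2 and 5 with each array left out: 4 without array 49, 52 or 53 and 5 without array 50. A group of 2 arrays overlaps less easily by construction. The share of all probe sets apart and lower is given here only for the 6 arrays as deposited. The counts under the other settings therefore have no share beside them and are not read as a result about these genes. Qsox1 differed by 0.038 without array 51, where the cause was not tested, and every other gene of the set kept its sign in each fit. Normalization moved some differences: Qsox1 differed by -0.05 and Pdia3 by -0.07 after quantile normalization, and by -0.03 and -0.07 after cyclic loess, where P4hb differed by -0.09. No paired analysis was possible because the groups share no replicate number. With 3 arrays per group, no difference in the set passed adjustment over all probe sets. Before adjustment, the limma 95% intervals of the 9 genes reached from -0.79 to 0.26, and only that of Txndc5 excluded 0.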

Other observations

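Thioredoxin-fold and related proteins outside the ER had a lower mean in AAV-PIK3CD in 15 of 20 measured genes, or 75%. This was close to the 72.0% of bright probe sets, beside 51.5% of all. The median difference was -0.09, and 0 were called by rank products or limma. Of the 3 with the smallest limma p, nucleoredoxin (Nxn) differed by 0.32 (SE 0.14), Txnip, the thioredoxin inhibitor induced by glucose, by 0.50 (SE 0.30), and the cytosolic peroxiredoxin Prdx2 by -0.22 (SE 0.14). Txnip read 8.37, 9.73 and 9.52 in AAV-PIK3CD, against 8.63, 9.05 and 8.43 in AAV-control, so array 51 was below all controls and arrays 52 and 53 above them. Its difference was 0.92 without array 51 and 0.24 without array 52.

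Secreted hepatocyte proteins rich in disulfides, the clients of the pathway, stood close to 0 at a median difference of -0.035 over 24 measured genes. Of these 15 had a lower mean, or 62.5%, beside 51.5% of all and 72.0% of bright probe sets, and 0 were called. Albumin (Alb) averaged 13.27 ± 0.03 in AAV-PIK3CD and 13.24 ± 0.04 in AAV-control (SD, n = 3 each). Apoh, hemopexin (Hpx) and haptoglobin (Hp) had the smallest limma p of the list and differed by -0.12, -0.11 and -0.11. Without array 51 Apoh differed by 0.005. Plasma cell markers, from cells that also use this pathway heavily, had a mean level of 5.08 to 5.28 in AAV-PIK3CD and 5.19 to 5.40 in AAV-control. In the controls 3 of 7 lay above the array median: Sdc1, Fkbp11 and Derl3, the last also counted in the unfolded protein response list. Jchain, Tnfrsf17, Irf4 and Mzb1 lay below it, where background limits what a level can show.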
